A study of Mus musculus with 48 samples.

Results

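The common stroke effect over the 4 cell types of the neurovascular unit was measured as 1 difference between hemispheres: 24 ipsilateral libraries were compared with 24 contralateral libraries, which together are all 48 libraries of the series. Microglia, astrocytes, pericytes and endothelial cells had been sorted from the brains of male C57BL/6 wild-type mice of 12 to 15 weeks, after the right middle cerebral artery had been closed for 1 h and opened again for 23 h. The contralateral hemisphere of the same mice was the control, so both groups carried the surgery, the anesthesia and the sorting, and no sham-operated group was analysed here. Each replicate number is a pool of 3 to 4 mice, selected for a clear neurological deficit, and each cell type and hemisphere has 6 such pools. Microglia were gated as CD45low/CD11b+ events and the other 3 cell types as CD45-negative ones, astrocytes by ACSA2, endothelial cells by VE-cadherin, and pericytes as events positive for both NG2 and PDGFRβ. A gene was tested when its mean normalized count was at least 10 in each of the 4 cell types, which 11357 of 24973 genes reached. It was called shared when the adjusted p of the common effect was at most 0.05, the mean difference was at least 1.5-fold, and the difference had the same direction in every cell type. By this rule 881 genes (7.76%) were shared.

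In the neurovascular unit, endothelial cells form the blood-brain barrier, pericytes wrap the capillaries, astrocytes reach the vessels with their endfeet, and microglia are the resident phagocytes. Closing a cerebral artery deprives all of them of oxygen and glucose, and reopening it adds oxidative stress and inflammation. Cells answer such stress through programs that do not belong to a single lineage: antioxidant and metal-binding proteins, chaperones, glycolysis, cytoskeletal remodeling, secreted cytokines and matrix proteins.

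The libraries held 10549900 to 16942165 normalized counts each, from an estimated 4900000 to 17100000 reads on genes. In the column names and the sample titles, the ipsilateral pericyte and microglia labels are exchanged, and the column names were used here. All 16 lineage markers examined (4 for each cell type) were higher in every library of their own cell type, by the column names, than in any other library. The sum of 10 microglial genes in the other cell types, as a percentage of the microglia library of the same pool and hemisphere, split the pools. In pools 1 to 4 it was 3.24 to 21.4% in ipsilateral endothelial cells, 3.61 to 26.1% in pericytes and 1.63 to 9.97% in astrocytes, against 1.88 to 7.03%, 0.19 to 5.21% and 0.776 to 6.35% in the contralateral libraries. In pools 5 and 6 none of these 3 cell types exceeded 0.441% in either hemisphere. The highest values, 21.4, 26.1 and 9.97%, were those of ipsilateral pool 3. The microglial sum that served as the base was itself lower after stroke. It was 775968 to 885109 in contralateral and 428949 to 691085 in ipsilateral microglia, which raises the ipsilateral percentages. In astrocytes the highest sum was 54200 contralaterally and 45118 ipsilaterally. Several markers of blood leukocytes moved with the hemisphere. Of the 8 neutrophil markers, 5 were tested and 4 (S100a8, S100a9, Retnlg and Mmp8) were shared and higher; of the 4 monocyte markers, 3 were tested and all 3 (Ccr2, Plac8 and Chil3) were shared and higher. The summed neutrophil markers in endothelial cells were 36 to 1724 contralaterally and 84 to 10172 ipsilaterally, and the neutrophil granule genes Camp and Ngp were at 0 in all 6 contralateral endothelial libraries, Camp also in the ipsilateral ones. In pericytes the neutrophil sums reached 1639 contralaterally and 13016 ipsilaterally, and in astrocytes 1473 and 5419. The highest monocyte sums were 880 (contralateral) and 4527 (ipsilateral) for endothelial cells, 537 and 7081 for pericytes, and 787 and 1764 for astrocytes, over lowest sums of 143 and 172, 0 and 15, and 1 and 125. Of the other marker lists, Cd68 (microglia) and Tubb3 (neurons) were shared and higher, Myh11 (smooth muscle) was shared and lower, and no tested marker of endothelial cells, pericytes, astrocytes, erythrocytes or oligodendrocytes was shared. Of the 5 fibroblast markers 2 were tested and neither was shared, and no T cell marker reached the minimum level, so these lists say little. In pools 5 and 6 the ipsilateral neutrophil sums were at most 251 for endothelial cells, 161 for pericytes and 388 for astrocytes, and the ipsilateral monocyte sums at most 207, 22 and 186. In microglia the neutrophil sum had a median of 7211.5 contralaterally and 5127.5 ipsilaterally and was higher in 1 of 6 pairs, whereas the monocyte sum was higher in 6 of 6. The 4 shared neutrophil markers nevertheless had a higher mean in ipsilateral microglia, as the rule requires (S100a9 by 3.26). The neutrophil sum in microglia thus did not follow these 4 markers. It also includes Csf3r, Ngp, Camp and Ltf, which were not shared and whose part in the sum was not examined. In these bulk samples, fewer cells of a type and less RNA per cell cannot be told apart. The part of leukocyte and microglial RNA in the results was not tested, and a number of genes are given for pools 5 and 6 as well. The sort took endothelial cells, pericytes and astrocytes from CD45-negative events, a gate meant to remove leukocytes and microglia.

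Stroke raised 534 genes (4.7% of those tested) and lowered 347 (3.06%) across all 4 cell types. The median log2 difference, ipsilateral minus contralateral, was 1.26 among the higher genes and -0.81 among the lower ones, against -0.03 over all tested genes. By this filter higher genes formed the larger and steeper group, and the largest difference among them was 6.54 (Mmp12), against 2.32 in size among the lower ones. The minimum mean took both hemispheres together. In at least 1 cell type, 108 higher genes had a contralateral mean under 10, and 23 lower genes an ipsilateral one. Mmp12 was at 0 in contralateral endothelial cells and astrocytes. With a minimum of 10 in both hemispheres, 424 higher and 324 lower genes were shared. Of the 881 genes, 843 are protein coding. A common direction alone was frequent (28.6%): 1407 tested genes (12.4%) were higher and 1837 (16.2%) lower in each cell type. The 4 cell types of a pool come from the same mice, so the 48 libraries are not 48 independent samples, and p-values over libraries can be too small. When the 4 cell types were first averaged within each pool and the 6 pools were tested, 254 genes were higher (2.24%) and 118 lower (1.04%), which included 253 of the 534 and 107 of the 347. Among the shared genes, the closest to the threshold on p were Hnrnpd inside (adjusted p = 0.0495) and Sgpp2 outside (0.0503). The closest on size were Rcbtb2 inside and Xrn1 outside, both with a log2 difference of 0.58 in size. The adjusted p alone was met by 9.36% of tested genes in the higher and 7.18% in the lower direction. A further 295 higher and 334 lower genes met the direction and the p but stayed under 1.5-fold, and 125 and 35 met the p and the size with a direction that differed between cell types.

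The effect was not of 1 size in the 4 cell types. For the 534 higher genes, pericytes had a median log2 difference of 1.41, endothelial cells 1.26, microglia 1.07 and astrocytes 0.90. In pools 5 and 6 the order was another, with 1.00 for microglia and for endothelial cells, 0.73 for pericytes and 0.54 for astrocytes. For the 347 lower genes, microglia had a median of -1.2, pericytes -0.82, endothelial cells -0.80 and astrocytes -0.48. Pericytes held the largest rise for 196 of the higher genes, and microglia held the largest fall for 198 of the lower ones. A 2-fold difference in each of the 4 cell types was reached by 119 higher and 13 lower genes. In the separate test of each cell type (adjusted p of at most 0.05 and 1.5-fold), microglia had 1160 genes that passed (10.2%), pericytes 534 (4.7%), endothelial cells 408 (3.59%) and astrocytes 115 (1.01%). Of the higher shared genes, 142 passed in no cell type on its own, 238 in 1, 102 in 2, 36 in 3 and 16 in 4. Of the lower ones, 161 passed in none and none passed in all 4. The direction held in every one of the 24 pairs of hemispheres for 28 higher and 10 lower shared genes, where 30 (0.264%) and 10 (0.0881%) of all tested genes had such a record.

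**Figure D1:**
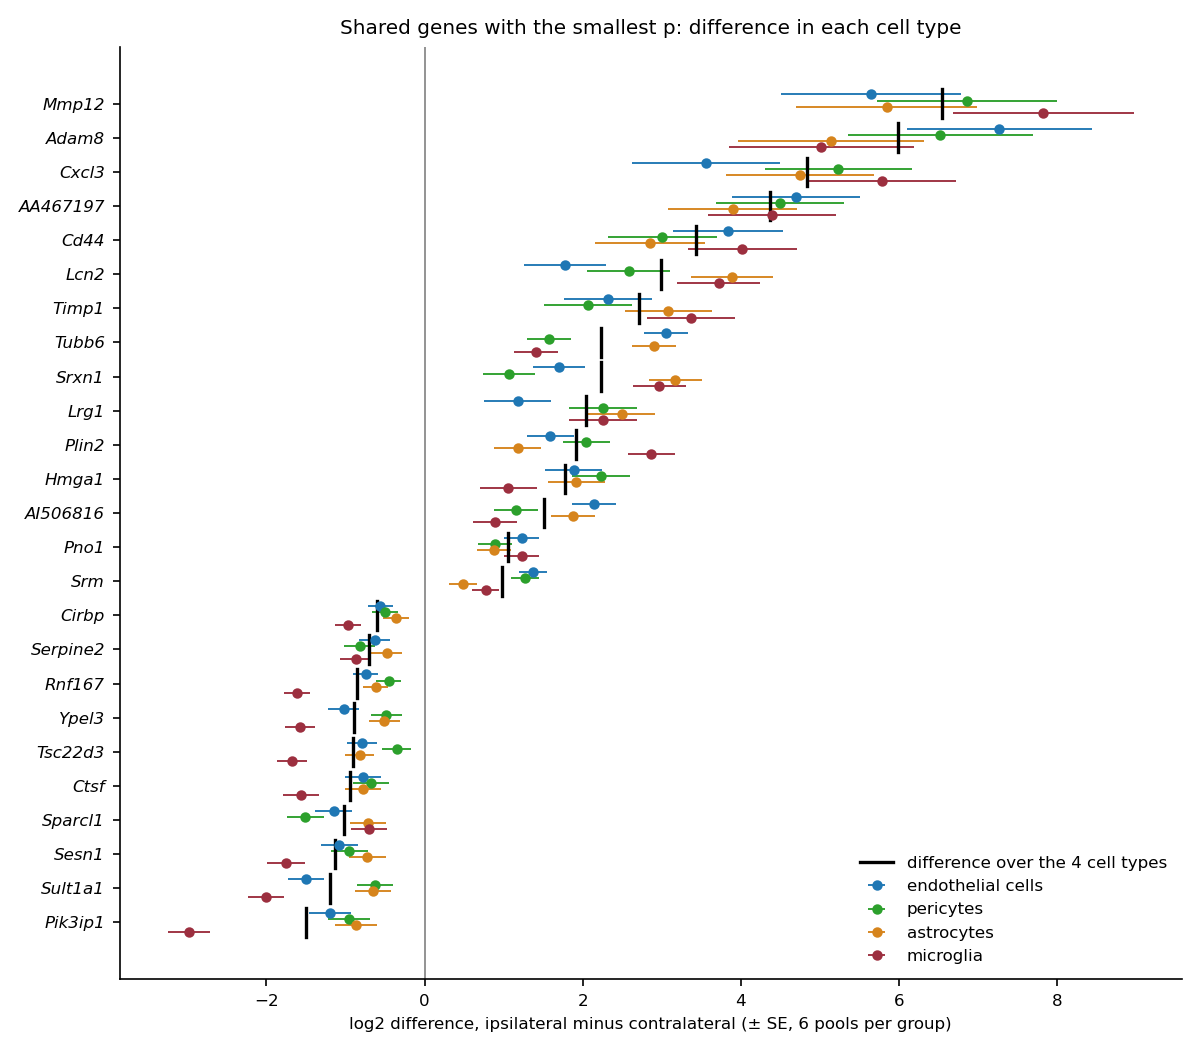
Log2 difference, ipsilateral minus contralateral (x axis), of the shared genes with the smallest p, with a point ± SE for each cell type (6 pools per hemisphere) and a black bar for the difference over the 4 cell types. Points of a gene lie on the same side of 0, with Mmp12 farthest to the right (6.54) and Pik3ip1 farthest to the left (-1.5).

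The 16 genes that rose in each of the 4 cell types taken separately (0.141% of those tested) were Timp1, Tubb6, Cd44, Pno1, Bysl, Adam8, Lcn2, Il1rn, Cd72, Plin2, Cxcl3, AA467197, Ccl5, Mmp12, AI506816 and Lilr4b. They fall into matrix and adhesion genes (Timp1, Cd44, Mmp12, Adam8), secreted immune factors (Lcn2, Il1rn, Cxcl3, Ccl5), ribosome assembly factors (Pno1, Bysl), a tubulin (Tubb6), a lipid droplet protein (Plin2) and leukocyte surface receptors (Cd72, Lilr4b). No gene fell in all 4 separate tests. AA467197, the mouse counterpart of human C15orf48, gave 0, 12 and 82 contralaterally against 236, 281 and 335 ipsilaterally in endothelial cells, 0, 1 and 8 against 12, 28.5 and 104 in astrocytes, and 0, 1.5 and 8 against 25, 50 and 180 in microglia. Its pericyte counts, 0, 0 and 12 against 6, 38.5 and 241, were the only ones with overlap. It rose by 4.37 ± 0.39 (adjusted p = 1.4e-10) and by 3.57 in pools 5 and 6.

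Tubb6, a β-tubulin of the microtubule lattice, had the smallest p of the common effect. Its contralateral normalized counts (lowest, median, highest of 6) were 725, 1292 and 1803 in endothelial cells, and its ipsilateral counts were 7732, 9720 and 14773. In pericytes they were 860, 1207.5 and 2652 against 2661, 4255 and 4862, and in astrocytes 103, 176 and 450 against 690, 1520.5 and 2116. In microglia they were 804, 1113 and 2190 against 2793, 3431.5 and 3919. The 2 hemispheres did not overlap in any of the 4 cell types. The common log2 difference was 2.23 ± 0.18 (SE, adjusted p = 5.9e-12, higher in 24 of 24 pairs), and it was 2.37 in pools 5 and 6. Ipsilateral endothelial libraries held 220 to 437% of the Tubb6 level of the microglia library of the same pool, and pericyte libraries 67.9 to 156%. Of the 12 tubulins tested, 3 were shared and higher (4.7% of all tested genes were), none was lower, and the median log2 difference was 0.57. Tubulins are near-identical in sequence, and since reads that mapped to several places were not counted, their levels are uncertain. Tubb5 rose by 0.67 ± 0.10 (adjusted p = 6.1e-06). Tubb3, a tubulin that is best known from neurons, rose by 2.05 ± 0.56 (adjusted p = 0.0084) but was not called over pools. Tuba1c passed the p (0.00024) and the size, at 1.15 ± 0.22, yet its direction differed, with -0.07 in pericytes.

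The actin cytoskeleton, annexin and galectin list followed the same direction. Of 23 genes, 12 were shared and higher, none was lower, and the median log2 difference was 0.80. The share of higher genes among all tested genes was 4.7%. Lgals3, the secreted lectin galectin-3, rose by 3.07 ± 0.47 (adjusted p = 7.3e-06), most in microglia at 5.13, and by 3.78 in pools 1 to 4 against 1.63 in pools 5 and 6, where pericytes had 0.61 and astrocytes 0.44. Lgals1 rose by 1.42 ± 0.23. Tpm4, a tropomyosin of actin filaments, rose by 1.04 ± 0.18 in 24 of 24 pairs. Arpc1b, a subunit of the actin-nucleating Arp2/3 complex, rose by 0.69 ± 0.11 in 24 of 24 pairs, most in astrocytes at 1.44. In pools 5 and 6 the median of the list was 0.60.

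The genes of the osteopontin axis, Spp1, Cd44, Timp1 and Mmp12, were all shared and higher (4 of 4), with a median log2 difference of 3.67. The study chose this list on these samples, so its direction is not independent evidence. Timp1, the secreted inhibitor of matrix metalloproteinases (chromosome X, 20870166 to 20874735, plus strand, GRCm38), was highest in pericytes, with contralateral counts of 517, 1680.5 and 5459 and ipsilateral counts of 3649, 7582 and 17831. In endothelial cells the counts were 34, 172 and 612 against 216, 972 and 1491, in astrocytes 31, 55 and 245 against 270, 701.5 and 809, and in microglia 0, 5.5 and 21 against 28, 57.5 and 210. The hemispheres were separate in astrocytes and microglia and overlapped in endothelial cells and pericytes. The common difference was 2.71 ± 0.28 (adjusted p = 2.4e-09) and 2.63 in pools 5 and 6, and every one of the 24 pairs was higher. Ipsilateral pericytes held at least 4713% of the Timp1 level of the microglia of the same pool.

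Cd44, the hyaluronan and osteopontin receptor (chromosome 2, 102811141 to 102901665, minus strand), gave contralateral counts of 35, 97 and 166 and ipsilateral counts of 631, 1675 and 2342 in microglia. In pericytes the counts were 9, 114 and 219 against 363, 590.5 and 1638, in astrocytes 152, 199.5 and 1580 against 879, 2156 and 4336, and in endothelial cells 4, 5.5 and 96 against 26, 194 and 1042. The hemispheres were separate in pericytes and microglia, while 1 or more contralateral libraries reached into the ipsilateral range in the other cell types. The difference was 3.43 ± 0.34 (adjusted p = 1.3e-09, higher in 24 of 24 pairs) and 2.54 in pools 5 and 6.

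Spp1, the secreted phosphoprotein osteopontin (chromosome 5, 104435118 to 104441050, plus strand), was highest in microglia, at 2594, 4368 and 9637 contralaterally and 87954, 257205.5 and 707269 ipsilaterally. In endothelial cells the counts were 68, 425.5 and 3309 against 276, 19543 and 85525, in pericytes 2050, 4108.5 and 9435 against 6133, 29718.5 and 112736, and in astrocytes 340, 816.5 and 1962 against 1624, 7748 and 42687. The hemispheres were separate in microglia and overlapped in the other 3 cell types. The common difference was 3.91 ± 0.43 (adjusted p = 1.3e-08, higher in 24 of 24 pairs). In pools 5 and 6, where the microglial sum was low, microglia had a difference of 4.23, endothelial cells 1.77, pericytes 0.69 and astrocytes 0.37. The endothelial ipsilateral counts of those pools were 312 and 276. The rise outside microglia was thus smaller in the pools with the low microglial sum, and the part of microglial RNA in it was not tested.

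Mmp12, the macrophage metalloelastase, had the largest difference of the shared genes, 6.54 ± 0.57 (adjusted p = 6.1e-11, higher in 20 of 24 pairs and tied in the rest). Microglia rose from 6, 33.5 and 60 to 2213, 6029 and 14533. All 6 contralateral libraries of endothelial cells and of astrocytes were at 0, and the ipsilateral counts were 0, 220.5 and 983, and 0, 145 and 596. Against a floor of 3 reads, averaged over the group, the rise was at least 100-fold in endothelial cells and at least 72.8-fold in astrocytes. In pericytes the counts were 0, 0 and 3 against 0, 349 and 1706. In pools 1 to 4 the ipsilateral endothelial, pericyte and astrocyte libraries held 2.01 to 14.3%, 3.08 to 14.8% and 0.885 to 8.69% of the Mmp12 level of the microglia of their pool, and in pools 5 and 6 they held 0, 0 to 2.23% and 0 to 0.411%. The mean difference was 8.34 in pools 1 to 4 and 2.95 in pools 5 and 6, and over pools it was not called (adjusted p = 0.19).

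Mmp12 was not alone among leukocyte genes in this pattern. Il1rn, the interleukin-1 receptor antagonist, differed by 5.71 ± 0.63 in the common fit (adjusted p = 1.3e-08), by 7.48 in pools 1 to 4 and by 2.18 in pools 5 and 6. Adam8, a leukocyte metalloproteinase, differed by 5.99 ± 0.58, and by 7.11 and 3.74 in the 2 sets of pools. Cd72, a lectin-like receptor, differed by 4.61 ± 0.56, and by 6.28 and 1.26. Lilr4b, an immunoglobulin-like receptor with a closely related paralog that may share reads, differed by 5.14 ± 0.59, and by 6.80 and 1.82. None of the 4 was called over pools, with adjusted p of 0.1, 0.12, 0.068 and 0.079. Slpi and Acod1, a protease inhibitor and the itaconate-forming enzyme of activated macrophages, differed by 4.41 ± 0.52 and 4.23 ± 0.57, and by 2.79 and 3.26 in pools 5 and 6. Acod1 was not called over pools (adjusted p = 0.054), and its pericyte difference in pools 5 and 6 was 0. For 64 of the 534 higher genes, both ipsilateral libraries of pools 5 and 6 were at 0 in endothelial cells, pericytes or astrocytes, and 317 of the 534 had their highest ipsilateral mean in microglia, as 276 had for the contralateral mean. The shares over all tested genes are not given for these counts, so no excess is read from them.

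**Figure D2:**
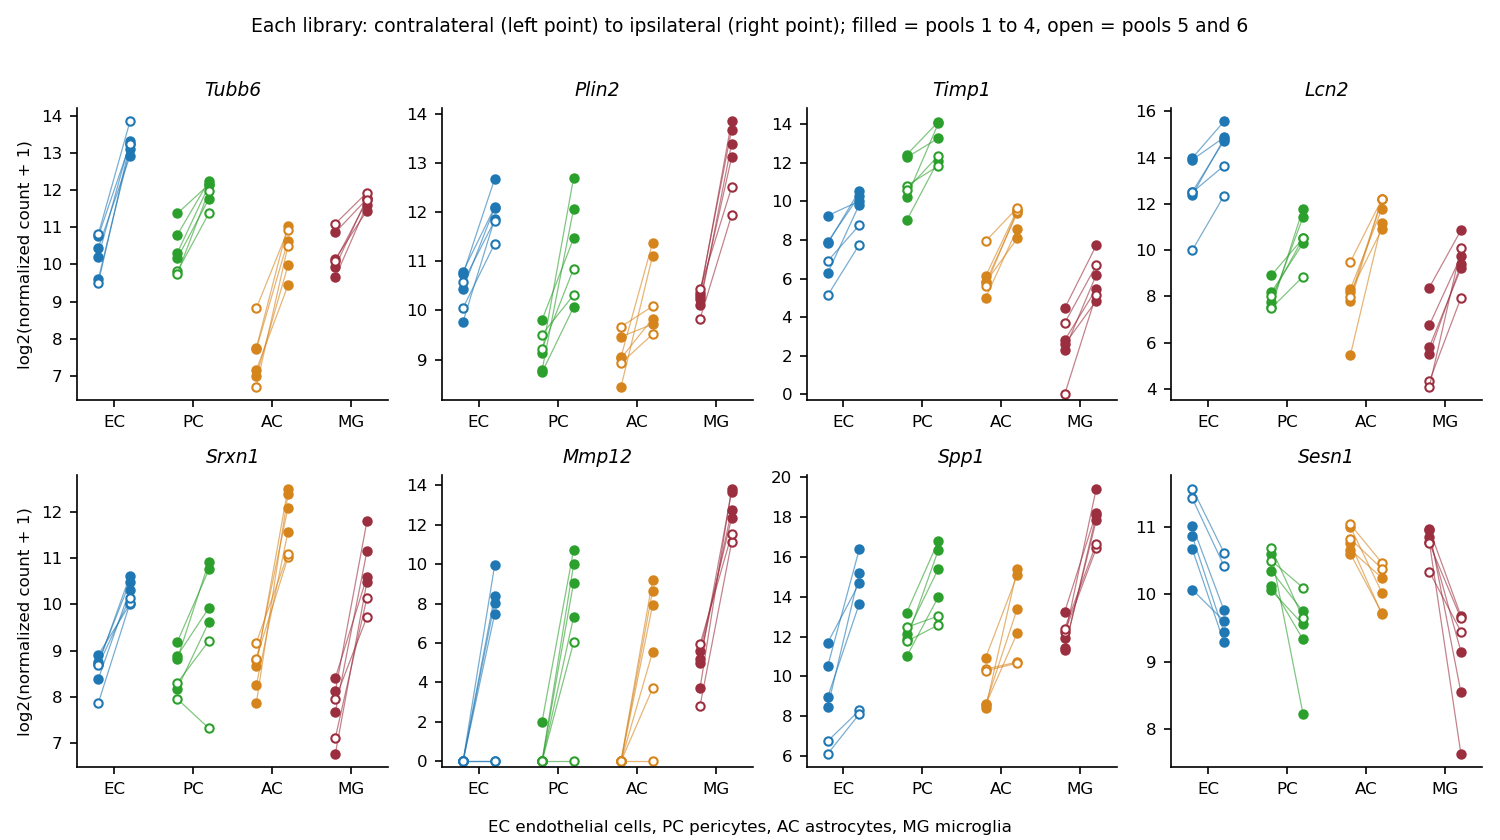
Deposited normalized counts as log2(count + 1) (y axis) of Tubb6, Plin2, Timp1, Lcn2, Srxn1, Mmp12, Spp1 and Sesn1 in every library, with a line from the contralateral to the ipsilateral library of each pool, filled points for pools 1 to 4 and open points for pools 5 and 6. For Tubb6 the hemispheres do not overlap in any cell type, whereas for Mmp12 the contralateral libraries of endothelial cells and astrocytes lie at 0.

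Plin2, the protein that coats lipid droplets (chromosome 4, 86656565 to 86670060, minus strand), gave 905, 1227.5 and 1381 in contralateral and 3917, 9784.5 and 14693 in ipsilateral microglia. In endothelial cells it gave 870, 1454.5 and 1765 against 2615, 4028.5 and 6523, in pericytes 426, 575.5 and 893 against 1069, 2334 and 6655, and in astrocytes 347, 525.5 and 812 against 731, 997 and 2659. The hemispheres overlapped in astrocytes and were separate in the other 3 cell types. The difference was 1.92 ± 0.17 (adjusted p = 1.4e-10, higher in 24 of 24 pairs) and 1.27 in pools 5 and 6. Of 27 genes of hypoxia and glycolysis tested, 5 were shared and higher (Pgk1, Pkm, Ldha, Slc16a3 and Adm), none was lower, and the median was 0.27. Among all tested genes 4.7% were shared and higher. Ldha, which turns pyruvate into lactate, rose by 0.75 ± 0.09 (adjusted p = 2.5e-08), and its endothelial counts were 9908, 11559.5 and 15131 against 13983, 15498 and 19944. Its microglial counts, 4814, 5559 and 6219 against 11125, 13216.5 and 15307, were separate, while the endothelial ranges overlapped. Slc16a3, a lactate exporter, rose by 1.74 ± 0.27, most in pericytes at 2.93. Pkm and Pgk1, enzymes of the pay-off steps of glycolysis, rose by 0.98 ± 0.15 and 0.77 ± 0.13, with 2.02 and 1.66 in microglia against 0.21 and 0.01 in astrocytes. Adm, the vasodilator peptide adrenomedullin, rose by 1.36 ± 0.33 (adjusted p = 0.0031). Of 18 genes of the cholesterol synthesis list tested, Sqle, Cyp51 and Hsd17b7 were among those shared and higher, none was lower, and the median was 0.46. Sqle, squalene epoxidase, rose by 1.01 ± 0.20, most in endothelial cells at 1.91. Of 26 genes of oxidative phosphorylation none was shared, and the median was 0.05. Atp5g1, a subunit of the ATP synthase, alone passed the adjusted p among them (0.0055), at 0.49 ± 0.13.

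Target genes of Nrf2, the transcription factor of the antioxidant response, were shared and higher more often than all tested genes (4.7%). Of 17 tested, 10 were shared and higher (Hmox1, Gclm, Txnrd1, Srxn1, Slc7a11, Gsr, Prdx1, Ftl1, Fth1 and Blvrb), none was lower, and the median was 0.77. Srxn1, which repairs overoxidized peroxiredoxins, rose from 232, 424.5 and 576 to 2066, 3676 and 5787 in astrocytes. In endothelial cells its counts were 233, 415.5 and 480 against 1025, 1193.5 and 1567, in microglia 108, 225 and 339 against 846, 1489 and 3537, and in pericytes 247, 382.5 and 583 against 159, 877.5 and 1931. Only the pericyte ranges overlapped. The difference was 2.23 ± 0.21 (adjusted p = 3.3e-10, higher in 23 of 24 pairs) and 1.59 in pools 5 and 6. Hmox1, heme oxygenase 1, which breaks down heme, was separate in endothelial cells (133, 401 and 552 against 1369, 2934.5 and 4966), in astrocytes (190, 422.5 and 667 against 3746, 4219 and 5367) and in microglia (1424, 1974 and 2666 against 3727, 6186 and 11481). In pericytes its counts, 0, 231 and 1693 against 273, 1382 and 6191, overlapped. The Hmox1 difference was 2.95 ± 0.39 (adjusted p = 6.8e-07, higher in 24 of 24 pairs), and 2.07 in pools 5 and 6. Slc7a11, the cystine importer, rose by 3.21 ± 0.57 (adjusted p = 7.2e-05), and by 2.27 in pools 5 and 6. Prdx1, a peroxiredoxin, rose by 0.73 ± 0.15, with 2.01 in microglia and 0.12 to 0.57 elsewhere.

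Metallothioneins are small proteins that bind zinc and copper. Of 7 genes of metallothioneins and zinc transporters, 3 (Mt1, Mt2 and the zinc importer Slc39a14, which rose by 1.00 in pools 5 and 6) were shared and higher, and the median was 0.45. Among all tested genes 4.7% were shared and higher. Mt3, a metallothionein of the brain, did not pass (0.34 ± 0.38, adjusted p = 0.58). Mt2 gave 83, 201 and 415 against 494, 813 and 969 in pericytes, which were separate. In endothelial cells it gave 163, 437 and 2350 against 775, 2625 and 3519, in astrocytes 725, 1317 and 2683 against 1849, 2710.5 and 3550, and in microglia 38, 81.5 and 174 against 134, 493.5 and 2036. The other 3 cell types overlapped. The Mt2 difference was 1.89 ± 0.21 (adjusted p = 2.1e-08) and 1.90 in pools 5 and 6, and Mt1 rose by 1.16 ± 0.18. Asns, asparagine synthetase, a target of the amino acid response factor Atf4, gave 40, 113.5 and 189 against 234, 365 and 538 in astrocytes and 38, 103.5 and 120 against 261, 404 and 622 in microglia, both separate. In endothelial cells it gave 200, 424 and 835 against 491, 898.5 and 1148, and in pericytes 63, 218 and 389 against 283, 519.5 and 843, both with overlap. Its difference was 1.66 ± 0.18 (adjusted p = 7e-09, higher in 24 of 24 pairs).

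**Figure D3:**
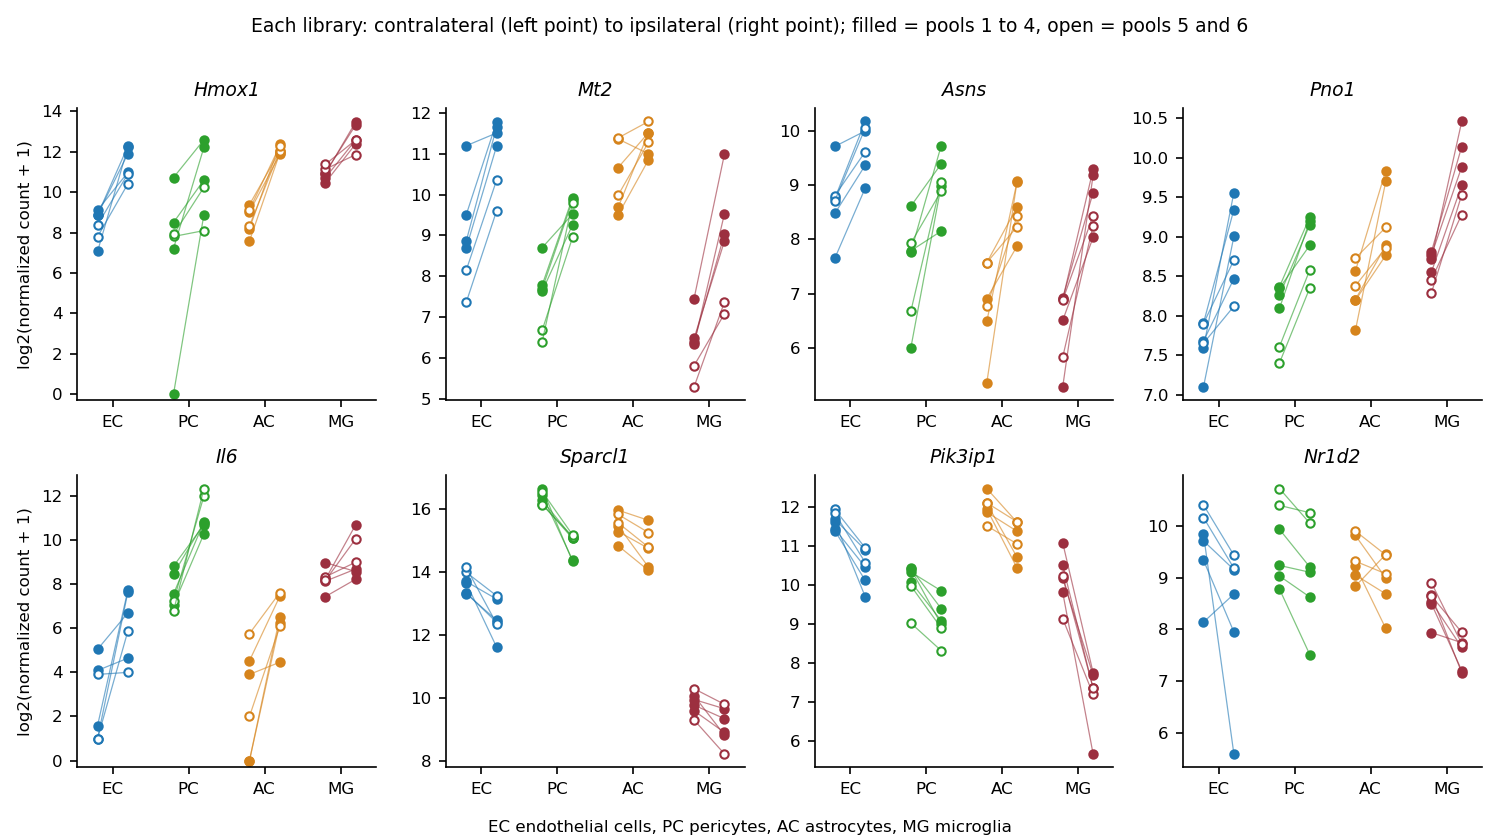
Deposited normalized counts as log2(count + 1) (y axis) of Hmox1, Mt2, Asns, Pno1, Il6, Sparcl1, Pik3ip1 and Nr1d2 in every library, with a line for each pool, filled points for pools 1 to 4 and open points for pools 5 and 6. Pno1 and Asns lines rise in all 24 pairs, and Sparcl1 and Pik3ip1 lines fall in all 24.

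The promoters of 4 of these genes are shown because each holds the letters of the element through which its stress pathway is known to act. Each window runs from 250 bases before to 50 after the RefSeq start (GRCm38.p6) and is printed 5′ to 3′ on the strand of the gene, with matches to the element, searched on both strands, in capitals. The Srxn1 window is chr2:152105274-152105573, plus strand, with the antioxidant response element TGANTCAGC. That of Mt2 is chr8:94172368-94172667, plus strand, with TGCNCNC, a loose form of the metal response element, so not every marked stretch need be the element. That of Asns is chr6:7693160-7693459, minus strand, with the amino acid response element TGATGNAA. That of Ldha is chr7:46845554-46845853, plus strand, with the hypoxia response element ACGTG.
Srxn1: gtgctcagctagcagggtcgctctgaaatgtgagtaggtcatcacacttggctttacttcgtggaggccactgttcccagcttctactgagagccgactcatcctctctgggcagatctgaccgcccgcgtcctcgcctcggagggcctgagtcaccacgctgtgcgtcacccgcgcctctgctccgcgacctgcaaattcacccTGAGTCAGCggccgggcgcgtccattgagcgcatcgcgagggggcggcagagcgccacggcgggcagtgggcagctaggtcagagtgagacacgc
Mt2: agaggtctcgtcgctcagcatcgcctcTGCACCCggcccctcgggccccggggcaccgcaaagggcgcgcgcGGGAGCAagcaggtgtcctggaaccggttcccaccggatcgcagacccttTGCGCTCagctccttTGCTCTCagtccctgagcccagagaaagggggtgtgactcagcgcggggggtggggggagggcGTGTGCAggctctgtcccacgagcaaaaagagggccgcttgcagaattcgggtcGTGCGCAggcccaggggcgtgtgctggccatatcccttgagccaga
Asns: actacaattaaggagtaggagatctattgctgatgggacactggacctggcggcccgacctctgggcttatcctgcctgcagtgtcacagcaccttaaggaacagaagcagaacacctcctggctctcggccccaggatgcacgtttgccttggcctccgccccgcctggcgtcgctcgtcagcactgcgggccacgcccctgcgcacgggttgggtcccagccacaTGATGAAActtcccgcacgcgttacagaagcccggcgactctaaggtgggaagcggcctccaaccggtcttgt
Ldha: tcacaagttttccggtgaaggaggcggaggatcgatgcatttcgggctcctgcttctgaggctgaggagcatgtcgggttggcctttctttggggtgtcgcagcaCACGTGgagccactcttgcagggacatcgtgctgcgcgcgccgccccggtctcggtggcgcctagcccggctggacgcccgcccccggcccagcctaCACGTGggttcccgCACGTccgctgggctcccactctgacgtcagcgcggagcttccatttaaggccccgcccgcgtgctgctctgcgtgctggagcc
A window was found for 8783 of the 11357 tested genes, 410 of the 534 higher and 271 of the 347 lower ones. TGANTCAGC, which contains the AP-1 element TGANTCA, occurred in 1.17% of the windows of all 27025 genes with one, in 0.956% of those of tested genes, 2.93% of those of higher and 1.11% of those of lower genes. TGANTCA itself occurred in 7.93, 4.68, 11.2 and 4.06%, in the same order. TGATGNAA occurred in 4.06, 2.15, 4.39 and 1.11%. TGCNCNC is short and occurred in 50.4, 60.3, 54.9 and 66.8%, so the 6 matches in the Mt2 window, and a match in 6 of the 6 windows of the metallothionein list, are read against that share. ACGTG occurred in 19.7, 26.4, 28.5 and 20.7%, and its palindrome CACGTG counts as a match on each strand, which gives the Ldha window, the first of 2 that RefSeq lists, 5 matches in 3 stretches. By list, TGANTCAGC was in 3 of 13 Nrf2 windows, TGATGNAA in 4 of 20 windows of the unfolded protein response and Atf4 list, and ACGTG in 16 of 26 windows of the hypoxia and glycolysis list. A match describes letters in the window and not a bound site.

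Genes for making ribosomes were among those that rose. Of all tested genes 4.7% were shared and higher, and 9.36% passed the adjusted p in that direction. Of 24 ribosome biogenesis genes tested, 12 were shared and higher, 18 passed the adjusted p in the higher direction, none was lower, and the median was 0.64. Nop58, a core protein of the small nucleolar particles that modify ribosomal RNA, rose by 0.81 ± 0.12, Nhp2 of the related pseudouridine-forming particles by 0.91 ± 0.15, and Nop16 and Rrp9 by 0.79 ± 0.13 and 0.69 ± 0.11. Outside the list, Pno1, needed for cutting the small subunit RNA (chromosome 11, 17203198 to 17211568, minus strand), was higher in 24 of 24 pairs. It gave 136, 202 and 239 against 277, 464 and 753 in endothelial cells, 224, 313 and 423 against 434, 514 and 914 in astrocytes, and 311, 397.5 and 447 against 621, 874.5 and 1407 in microglia. In pericytes it gave 168, 288.5 and 329 against 326, 521 and 607, the only cell type with overlap. The change was small and even, at 1.06 ± 0.11 (adjusted p = 2.4e-09), with 0.88 to 1.23 in the 4 cell types. Bysl, another small subunit factor, rose by 0.93 ± 0.11, Srm, spermidine synthase, by 0.97 ± 0.10, and Hmga1, a chromatin protein of growing cells, by 1.77 ± 0.19. Of 12 cell cycle genes tested, only Mcm2 and Ccnd1 were shared and higher, by 0.93 ± 0.29 and 0.69 ± 0.23, and 6 of the 18 on the list, Mki67 among them, were under the minimum level.

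In the mean over the 4 cell types, genes of protein folding and degradation mostly stayed under 1.5-fold. Among all tested genes, 4.7% were shared and higher, and 9.36% passed the adjusted p in the higher direction. The numbers of shared genes below are read against that 4.7%. All 8 subunits of the chaperonin that folds actin and tubulin passed the adjusted p in the higher direction. None reached 1.5-fold in that mean, and their median was 0.51. By cell type the chaperonin median was 0.74 in microglia, 0.61 in endothelial cells, 0.41 in astrocytes and 0.18 in pericytes. Of 31 proteasome subunits, 26 passed the adjusted p in the higher direction, but Psmd14 alone, at 0.77 ± 0.11, was shared, and the median was 0.38. The proteasome median was 0.92 in microglia, against 0.28 in endothelial cells, 0.22 in pericytes and 0.14 in astrocytes. Of 18 heat shock proteins and co-chaperones, only Hspe1 was shared (0.61 ± 0.17, adjusted p = 0.0085), and the median was 0.17. Of 23 genes of the unfolded protein response and Atf4, 4 were shared and higher (Sdf2l1, Manf, Creld2 and Asns) and 13 passed the p in that direction. Hspa5, the main chaperone of the endoplasmic reticulum, passed the p (9e-05) at 0.54 ± 0.10, under 1.5-fold.

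**Figure D4:**
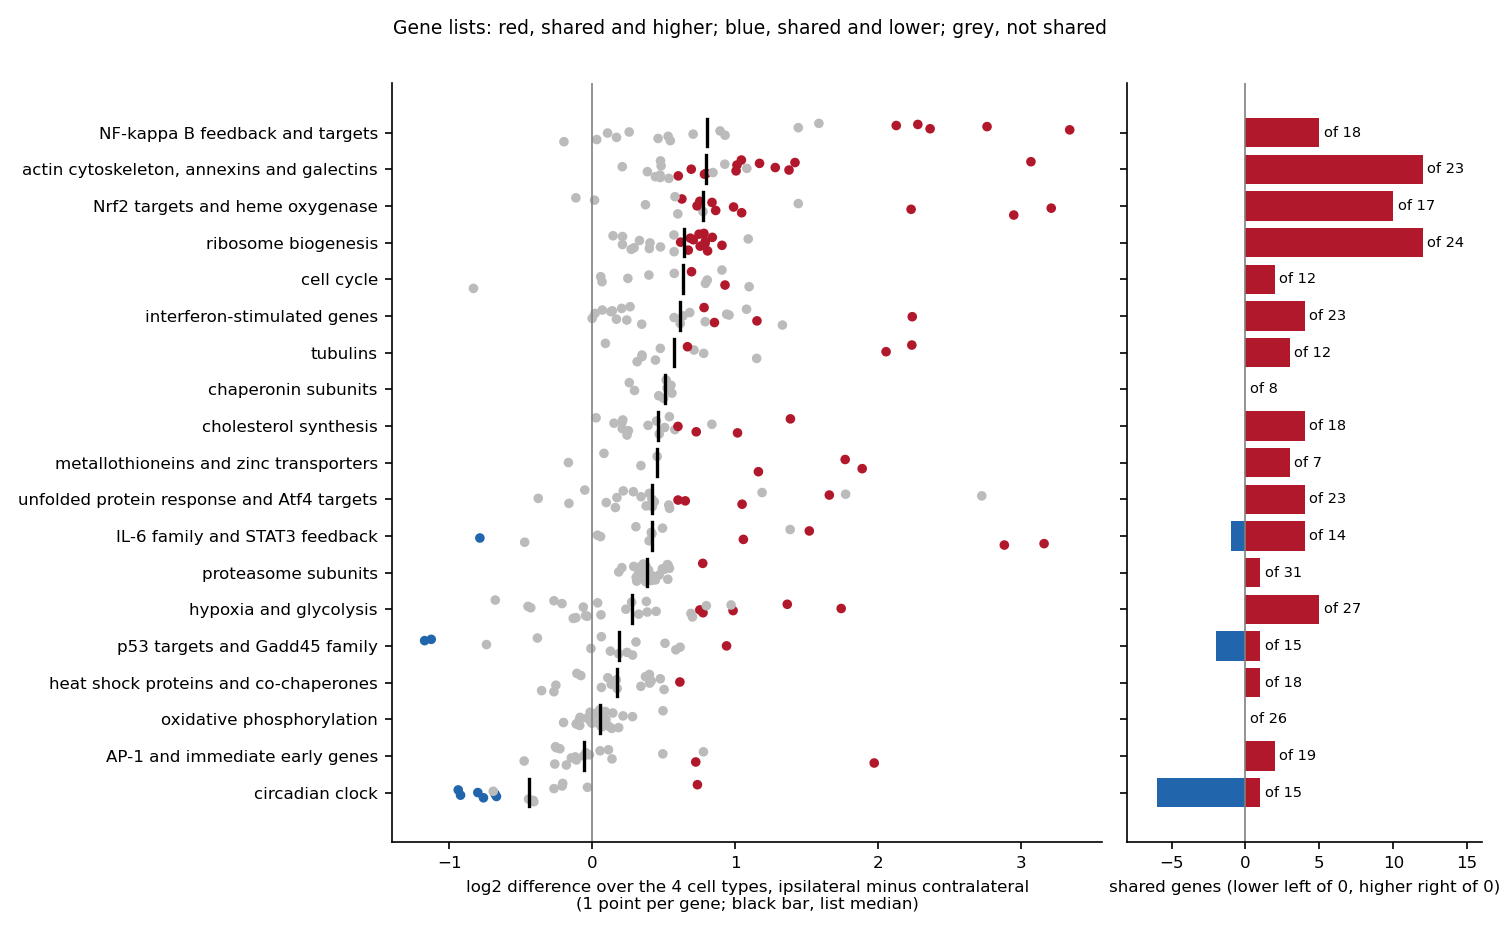
Left, log2 difference over the 4 cell types (x axis) of each tested member of 19 gene lists, with a black bar for the list median, red for shared and higher, blue for shared and lower and grey for not shared. Right, the number of shared genes of each list, lower to the left of 0 and higher to the right. The ribosome biogenesis list (12 of 24) and the actin list (12 of 23) have the longest bars, and the circadian clock list (6 lower) points to the left.

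Several genes of secreted inflammatory factors rose across the cell types. Lcn2, lipocalin-2, which captures bacterial iron carriers (chromosome 2, 32384633 to 32387797, minus strand), gave 1024, 5844.5 and 16239 against 5221, 27934.5 and 48396 in endothelial cells. In astrocytes it gave 43, 269 and 718 against 1931, 4110.5 and 4763, in pericytes 179, 236.5 and 481 against 462, 1456.5 and 3526, and in microglia 16, 50 and 333 against 244, 759.5 and 1856. Astrocytes were the cell type without overlap. The difference was 2.99 ± 0.28 (adjusted p = 3.9e-10, higher in 24 of 24 pairs), and it was 2.99 in pools 1 to 4 and also in pools 5 and 6. Lrg1, a leucine-rich glycoprotein of blood vessels, rose by 2.05 ± 0.22 (adjusted p = 6.2e-09) and by 2.61 in pools 5 and 6. The neutrophil-attracting chemokine gene Cxcl3 rose by 4.83 ± 0.47, by 5.64 in pools 1 to 4 and by 3.20 in pools 5 and 6, and was not called over pools (adjusted p = 0.058). The lymphocyte-attracting Ccl5 rose by 3.52 ± 0.39, and by 4.01 and 2.53 in these sets of pools. In pericytes, all 6 contralateral Ccl5 counts were at 0, and the rise was at least 13.7-fold against the floor of 3 reads.

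The interleukin-6 list held 14 tested genes, of which 4 were shared and higher (Il6, Osm, Osmr and Bcl3) and 1 lower (Lifr). For this list and those below, the shares over all tested genes were 4.7% higher and 3.06% lower. Il6 (chromosome 5, 30013114 to 30019981, plus strand) was separate in pericytes, at 108, 168 and 450 against 1235, 1784.5 and 5110. In endothelial cells the counts were 1, 8 and 32 against 15, 80.5 and 212, in astrocytes 0, 8.5 and 53 against 21, 83 and 195, and in microglia 172, 292 and 502 against 298, 460.5 and 1663. The ranges overlapped outside pericytes. The Il6 difference was 2.88 ± 0.40 (adjusted p = 1.7e-06) and 2.97 in pools 5 and 6, where the microglial sum was low. Osm, oncostatin M, rose by 3.16 ± 0.63 and by 1.65 in pools 5 and 6, and its receptor gene Osmr by 1.06 ± 0.37 (adjusted p = 0.042). Neither was called over pools, and Osmr lost its call in 28 of 48 alternative analyses. Bcl3, a nuclear partner of NF-kappa B, rose by 1.52 ± 0.20, most in astrocytes at 2.49. Lifr, the receptor of leukemia inhibitory factor, fell by 0.79 ± 0.12 (adjusted p = 1.4e-05). Of 18 genes of NF-kappa B feedback and targets, 5 were shared and higher (Ccl2, Ccl7, Cxcl2, Cxcl10 and Il1b), and the median was 0.80. Ccl2, the monocyte-attracting chemokine, gave 760, 1117.5 and 1676 against 2599, 3088 and 13327 in microglia and 0, 12.5 and 177 against 24, 364.5 and 950 in endothelial cells, and the first pair of ranges was separate. It rose by 3.34 ± 0.50 (adjusted p = 4.8e-06) in 24 of 24 pairs, and by 2.52 in pools 5 and 6. Of 23 interferon-stimulated genes tested, 4 were shared and higher (Oasl1, Psmb8, Irf7 and Ifitm3), with a median of 0.61, which was 0.84 in pools 1 to 4 and 0.14 in pools 5 and 6. Of 19 AP-1 and immediate early genes, only Fosl1 and Fosl2 were shared, by 1.97 ± 0.34 and 0.72 ± 0.21, and the median was -0.06. The cell types differed in direction, with AP-1 medians of 0.64 in astrocytes, -0.04 in pericytes, -0.08 in endothelial cells and -0.87 in microglia. Myc passed the p (0.031) and the size but was -0.75 in microglia against 1.82 in endothelial cells.

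Among the genes that fell in all 4 cell types, Sesn1 had the smallest p. Sesn1, sestrin 1, a stress-induced inhibitor of the growth kinase mTORC1 (chromosome 10, 41809935 to 41908424, plus strand), gave 1289, 1789.5 and 1993 against 197, 631 and 817 in microglia and 1552, 1765.5 and 2094 against 830, 1123.5 and 1410 in astrocytes. In endothelial cells it gave 1071, 1960.5 and 3030 against 622, 822 and 1568, and in pericytes 1063, 1371.5 and 1638 against 299, 774 and 1093. The hemispheres were separate in astrocytes and microglia. Sesn1 fell by 1.13 ± 0.13 (adjusted p = 2.3e-08, lower in 24 of 24 pairs) and by 0.80 in pools 5 and 6. Pik3ip1, a membrane inhibitor of PI3 kinase, gave 562, 1176.5 and 2159 against 50, 163 and 215 in microglia and 2676, 3199.5 and 3898 against 829, 1461 and 1973 in endothelial cells, both separate. In pericytes it gave 519, 1183 and 1371 against 318, 524.5 and 921, and in astrocytes 2919, 4144.5 and 5656 against 1375, 2381.5 and 3132, both with overlap. It fell by 1.5 ± 0.18 (adjusted p = 1.1e-07, lower in 24 of 24 pairs), but over pools it was not called (adjusted p = 0.083). Tsc22d3, the glucocorticoid-induced leucine zipper, fell by 0.91 ± 0.12, also in 24 of 24 pairs, with separate endothelial counts of 11459, 17947 and 23878 against 8096, 10520 and 11440.

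Sparcl1, a secreted matrix protein that promotes synapse formation (chromosome 5, 104079111 to 104113733, minus strand), was most abundant in pericytes and fell there from 71486, 83445 and 101951 to 20515, 34316 and 36797. In endothelial cells it gave 10110, 12994.5 and 17957 against 3119, 5497.5 and 9643, in astrocytes 28951, 46485.5 and 63317 against 16834, 27694 and 50640, and in microglia 627, 925 and 1246 against 296, 560 and 884. The vascular cell types were separate and the other 2 overlapped. Sparcl1 fell by 1.02 ± 0.12 (adjusted p = 8.4e-08, lower in 24 of 24 pairs) and by 0.98 in pools 5 and 6. Sult1a1, a phenol sulfotransferase, fell by 1.2 ± 0.14, Ctsf, the lysosomal protease cathepsin F, by 0.95 ± 0.12, and Serpine2, a protease inhibitor, by 0.70 ± 0.10. Rnf167, a ubiquitin ligase, fell by 0.86 ± 0.10 and Ypel3 by 0.90 ± 0.12. Cirbp, the cold-inducible RNA-binding protein, fell by 0.60 ± 0.09, close to the threshold of size. Myh11, the smooth muscle myosin, fell by 2.05 ± 0.58 (adjusted p = 0.011), from 30758, 51980.5 and 95220 to 7976, 22020.5 and 35096 in pericytes. The pericyte ranges of Myh11 overlapped. The sum of 4 smooth muscle markers in the pericyte libraries was 305671 to 472420 contralaterally and 140102 to 323604 ipsilaterally, and its part in the result was not tested. Myh11 was not called over pools (adjusted p = 0.47). Myom1, Zfp184, Pnck and Pdlim3, with Myh11 the lower genes whose smallest change over the cell types was largest, fell by 1.62, 1.81, 1.86 and 1.72, and none of them was called over pools.

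The circadian clock list held more lower than higher shared genes. Of 15 circadian genes tested, 6 were shared and lower (Dbp, Tef, Hlf, Nr1d1, Nr1d2 and Arntl), 1 was shared and higher (Bhlhe40), and the median was -0.45. Nr1d2, the nuclear receptor REV-ERBβ that represses clock genes, gave 244, 384.5 and 478 against 142, 205 and 245 in microglia. In endothelial cells it gave 281, 877.5 and 1360 against 47, 490 and 692, in pericytes 439, 791.5 and 1696 against 181, 570 and 1225, and in astrocytes 456, 617.5 and 957 against 258, 524 and 699. The ranges overlapped in each of the 4 cell types. Nr1d2 fell by 0.80 ± 0.19 (adjusted p = 0.003), Dbp by 0.76 ± 0.16 (adjusted p = 0.00067) and Arntl by 0.94 ± 0.27 (adjusted p = 0.013), while the repressor Bhlhe40 rose by 0.73 ± 0.16. Over pools, only 2 of the 6 lower clock genes were called. Both hemispheres of a pool came from the same mice. Of 15 p53 targets, 2 were shared and lower (Trp53inp1 and Sesn1) and 1 higher (Plk3), with a median of 0.18, where 4.7 and 3.06% of all tested genes were shared and higher or lower.

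Some shared genes differed in size between cell types. The interaction of hemisphere and cell type passed for 150 tested genes (1.32%) and for 24 of the 881 shared genes (2.72%), of which 17 had their largest change in microglia, 3 in endothelial cells, 3 in astrocytes and 1 in pericytes. Pik3ip1 fell by 2.98 in microglia against 0.87 to 1.2 in the other cell types (interaction adjusted p = 0.0018). Igf2r, the mannose-6-phosphate receptor, differed by 4.69 in microglia and by 0.02 to 0.66 elsewhere (interaction adjusted p = 0.003). Tnfrsf12a, the receptor of the cytokine TWEAK, differed by 3.03 in astrocytes and by 0.35 to 0.93 elsewhere (interaction adjusted p = 0.0026). Sema6b, a guidance protein, differed by 4.01 in pericytes and by 0.12 to 0.65 elsewhere (interaction adjusted p = 0.014). Car13, a carbonic anhydrase, differed by 5.64 in endothelial cells and 4.89 in microglia, but by 0.95 in pericytes and 0.12 in astrocytes (interaction adjusted p = 0.00026). A shared direction thus included genes whose change was close to 0 in a cell type.

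The size of the common effect differed between pools, given here as a description because the members were chosen on all 6 pools. The median log2 difference of the higher genes was 1.39 in pools 1 to 4 and 0.91 in pools 5 and 6, and that of the lower genes was -0.93 and -0.59. In pools 5 and 6, 338 of the 534 higher and 253 of the 347 lower genes kept their direction in all 4 cell types. The pericyte median of the higher genes was 1.53 in pools 1 to 4 and 0.73 in pools 5 and 6, and the microglia median was 1.14 and 1.00. With pools 5 and 6 alone, 423 higher and 229 lower genes were shared, and 179 and 102 of them were among the 534 and 347. Besides those named above as not called over pools, the named genes S100a9, Mmp8, Retnlg, Ccr2, Chil3, Cd68, Fth1, Ftl1, Blvrb, Manf, Creld2, Sdf2l1, Hspe1, Cyp51, Hsd17b7, Il1b, Irf7, Psmb8, Fosl2, Mcm2, Plk3, Dbp, Hlf, Nr1d1, Arntl, Hnrnpd and Rcbtb2 were not called either. Without pool 3, which had the highest ipsilateral microglial percentages, 366 higher and 159 lower genes were shared. Among genes picked for this after their values were seen, Tubb6, Timp1, Lcn2, Mt2, Il6, Ldha and Sparcl1 had differences of 2.37, 2.63, 2.99, 1.90, 2.97, 0.80 and -0.98 in pools 5 and 6.

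**Figure D5:**
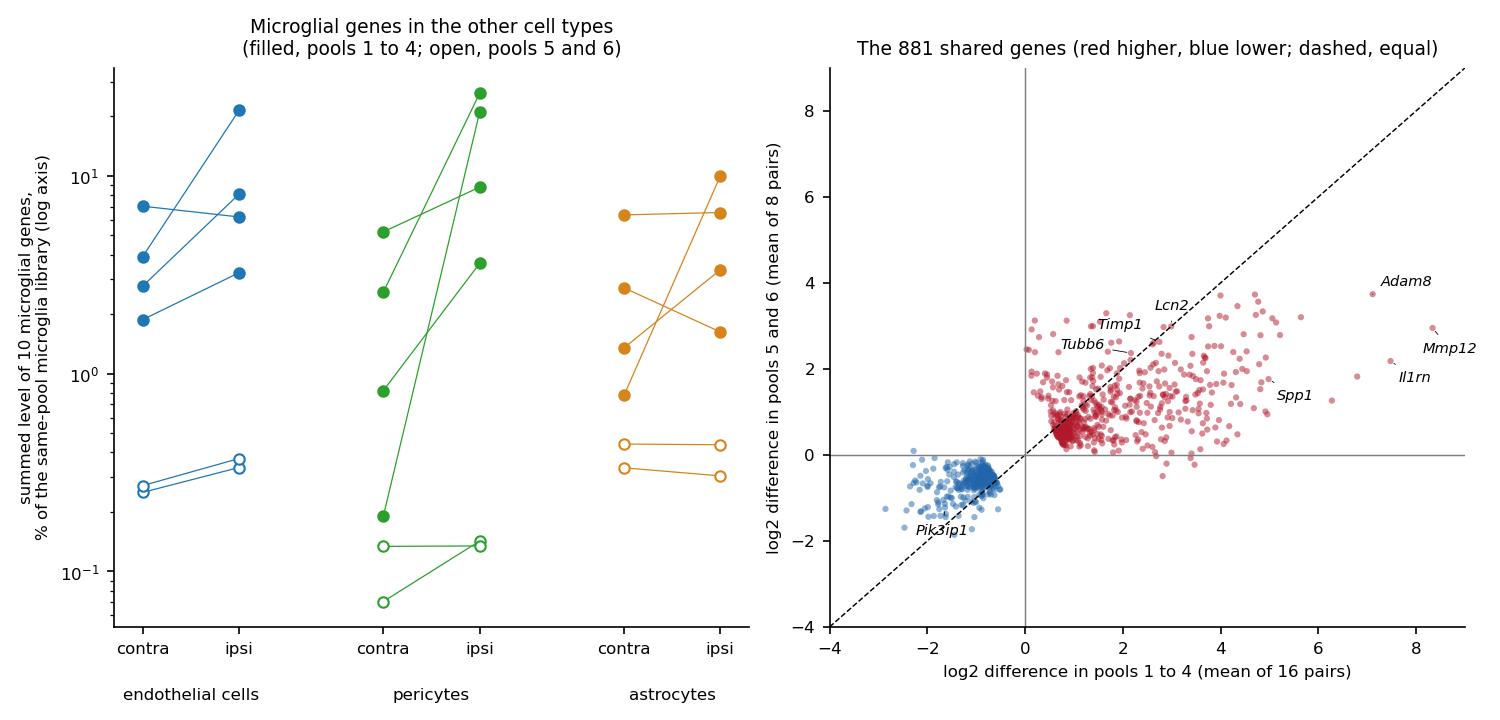
Left, summed level of 10 microglial genes in the libraries of the other cell types, as a percentage of the microglia library of the same pool and hemisphere (log axis), with a line for each pool, filled points for pools 1 to 4 and open points for pools 5 and 6. Right, the log2 difference of each of the 881 shared genes in pools 1 to 4 (x axis) and in pools 5 and 6 (y axis), with a dashed line where both are equal. Open points stay at or below 0.441%, and Mmp12 (8.34 and 2.95) lies under the dashed line, while Lcn2 and Tubb6 lie near it.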

How the data were processed

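RNA of sorted cells was amplified with a SMART-Seq HT kit and sequenced as single reads on a NextSeq 500. According to the study's methods and processing notes, reads were trimmed with Trimmomatic 0.38, aligned to GRCm38 (mm10) with STAR 2.6.1d and counted per gene with featureCounts 1.6.3, leaving out reads of several genes or positions, and the authors normalized the counts with DESeq2 1.18.1. The deposited values are normalized counts in whole numbers. They were handled as a score by the authors' scaling and no count model was used. Reads on genes were estimated from the spacing of low values, and intervals of counting are not given. Gene coordinates are those of GRCm38.

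Values were taken as log2(value + 1), so folds of low genes are understated. Genes with a mean of at least 10 in each cell type (11357 of 24973) were fitted with limma 3.58.1 in R 4.3.3 (trended empirical Bayes, two-sided), with hemisphere, cell type and replicate number as terms. An 8-group fit with replicate number gave the difference in each cell type and the interaction. P-values were adjusted by Benjamini-Hochberg over all tested genes. Thresholds were 0.05 and 1.5-fold. In the text, SE and adjusted p are those of limma. An exact two-sided sign-flip permutation test over the 6 pools, run in Python 3.11.15, cannot go below 0.03125 and is not used, since genes were chosen for their direction in the same pools. The replicate number marks a pool of mice per the study design. Deviations from the group means correlated at 0.26, 0.24, 0.40 and 0.14 between hemispheres of the same number in endothelial cells, pericytes, astrocytes and microglia, and at -0.05, -0.05, -0.08 and -0.03 between different numbers. The fits were tested on simulated data. Alternatives covered the replicate block, pool means, pseudocount, filter, scaling, sets of pools, titles and left-out libraries.

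Members and gene lists were chosen with earlier results of these data known. Named genes are the 15 higher and 10 lower shared genes with the smallest p, the 10 higher and 5 lower with the largest smallest difference over the cell types, the 4 genes of the osteopontin axis, genes called in each cell type, up to 4 members of each list with the smallest p, and the markers. Adm, Osmr, Il1b, Slc7a11, Tubb3, Tef, Hlf, Arntl, Prdx1, Car13, Plp2, Tnfrsf12a, Igf2r and Sema6b, the other members of a list named as shared, the genes at the thresholds and the promoters shown were chosen after their values were seen. Predicted genes are counted and not described, and an item of the lists is not reported here.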

Additional observations from a re-analysis of the deposited data

Results flagged for a closer look

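Of 123 genes examined, 10 had a pool whose mean difference over the 4 cell types stood apart from the other 5 by Dixon's 95% criterion, which chance alone gives for about 1 in 20. Pool 3, with the highest ipsilateral microglial percentages, stood apart for 6 of them. Its log2 difference was 2.06 for Tuba1c where the others were 0.84 to 1.14, 2.32 for Lgals1 (others 0.91 to 1.42), 0.93 for Hspa5 (others 0.41 to 0.49), 4.85 for Cxcl2 (others 2.04 to 2.89), 1.53 for Fth1 (others 0.39 to 0.81) and -1.40 for Xrn1 (others -0.60 to -0.30). Pool 1 stood apart for Hsd17b7 at 3.05 (others 0.53 to 1.39) and for Bysl at 0.17 (others 0.97 to 1.21). Pool 5 was low for Slc7a11 at 1.2 (others 3.08 to 4.19), and pool 6 for Plp2, a membrane protein, at 0.39 (others 1.38 to 1.87). These pools were left in.

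For 16 of the named shared genes the difference between hemispheres was not of the same size in the 4 cell types by the interaction test of limma. This test passed for 1.32% of all tested genes and 2.72% of the shared genes. Prdx1, Car13, Plp2, Tnfrsf12a, Igf2r and Sema6b were named after their values were seen, so the 16 are not a rate. The adjusted p of the interaction was 0.00049 for Pgk1 and 0.0065 for Pkm, with the largest rise in microglia in both. It was 0.00023 for Prdx1, 0.0024 for Plp2, 0.003 for Igf2r and 0.025 for Fth1, again largest in microglia. Among the lower genes it was 0.0018 for Pik3ip1, 0.0094 for Rnf167, 0.018 for Tsc22d3 and 0.02 for Sult1a1, each with the largest fall in microglia. Tubb6 (0.015) and Car13 (0.00026) rose most in endothelial cells, Srxn1 (0.016), Arpc1b (0.034) and Tnfrsf12a (0.0026) in astrocytes, and Sema6b (0.014) in pericytes. Myc, which was not shared, had 0.037, with differences of 1.82 in endothelial cells and -0.75 in microglia.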

How the results depend on the processing

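The number of shared genes depended on how pools, cell types and thresholds entered. Against 534 higher and 347 lower genes, the test over 6 pool means (with pool as a block) gave 254 and 118, the cell types taken from the titles 189 and 111, and a 1.5-fold difference in each cell type 208 and 57. Without a minimum fold the numbers were 829 and 681. Pools 1 to 4 alone gave 479 higher and 226 lower genes, and pools 5 and 6 alone 423 and 229. Over the means of pools 1 to 4, limma called 0 higher and 0 lower genes, with 2311 genes at an unadjusted p under 0.05. Without microglia 523 higher and 174 lower genes were shared, of which 386 and 125 were among the 534 and 347. The pool means of the other 3 cell types called 0 and 0 (2277 genes at an unadjusted p under 0.05). Pools 5 and 6 without microglia gave 219 and 81. Leaving out 1 pool gave 366 to 572 higher and 159 to 410 lower genes, the lowest of both without pool 3. Leaving out 1 pair of libraries gave 476 to 568 and 291 to 439. Without the replicate block 498 and 319 genes were shared, and the interaction passed for 13 shared genes in place of 24. Among 123 named genes and up to 49 alternatives each, 5309 of 5935 results kept direction and call, 613 kept the direction and lost the call, 12 gained it and 1 reversed: Igf2r was -0.021 (adjusted p = 0.97) in pools 5 and 6 without microglia. The causes were not tested. Depth limits low genes: 108 of the higher genes had a contralateral mean under 10 in at least 1 cell type, and a minimum of 10 in both hemispheres gave 424 and 324.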
